A study of Mus musculus with 4 samples.

Results

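Alternative 5' splice sites, pairs or sets of donors that end the same exon at different bases, were measured in the remote area of infarcted mouse hearts and in uninjured hearts. A site was taken where the deposited splicing table marks it as an alternative 5' splice site, where it is not the first, shortest donor of its set, where each of the 4 libraries had at least 10 reads of either form, and where each form had at least 5 reads over all libraries. That gave 1032 sites in 822 genes, of 7876 splicing events that passed the same minimum and of 124326 events in the table. The length of a site is the number of bases by which it extends the exon beyond the first donor. Of the 1032 sites, 64 had a length of 4 bases and 968 had other lengths. Lengths ran from 1 to 498 bases with a median of 41, and 4 was the commonest of 273 distinct lengths, ahead of 6 with 41 sites, 9 with 33 and 5 with 29.

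The infarcted group held 2 C57BL/6 mice whose left anterior descending coronary artery had been tied off for good, sampled in the myocardium away from the infarct. The uninjured group held 2 C57BL/6 mice without an infarct, and the labels name the same heart region for them. The library names of both groups carry 7 days, and no age, sex or operation of the uninjured mice is given in the sources used here. Polyadenylated RNA of whole tissue was sequenced as single reads of 50 bp, so fewer cells of a type and less RNA per cell cannot be told apart. Each library is labelled as 1 sample, and p-values measure the spread between these samples.

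A 5' splice site, or donor, is where the spliceosome cuts the start of an intron. U1 small nuclear RNA pairs with it first, and U6 small nuclear RNA takes its place before the cut. Nearly all mammalian donors begin the intron with GT, and a small minority with GC. When a second GT lies a few bases further on, the 2 donors compete, and their mRNAs differ by those few bases. In a coding exon a shift by a number of bases that is not a multiple of 3 changes the reading frame, and such mRNAs often meet an early stop codon and are degraded by nonsense-mediated decay. The use of a site is given here as the percent of the reads over the junctions of its set that join at that site, so 0% means that the first donor, or another of the set, took all reads.

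Spliced mRNA around 11 coding sites of length 4 shows what the pairs look like. Each run holds 12 exon bases before the first donor, then in capitals the 4 bases that the longer donor adds, then 10 bases of the next exon. Cd81, Atp6v1e1 and Fibp lie in sets of 3 donors, where an mRNA joined at the third donor keeps the capitals too. When the first donor is used the capitals are the first letters of the intron, so capitals that open with GT or GC are the first donor's own splice signal. The sequences are those of GENCODE M21 transcripts, found by gene, chromosome, strand and intron length. Idh2, Cd81 and Atp6v1e1 are shown for a GC first donor. Macrod1 and Clu share GTAG, Acadvl and Cox17 share GTCA, and Fibp has GTCG. In Map4k5, Tusc3 and Nup88 the next exon begins with the letters of the capitals.
Idh2: tccatggcctcaGCAAtgtgaagctg
Cd81: cacccccttactGCAGcaagattgtc
Atp6v1e1: agatgtacagaaGCAGattaagcaca
Macrod1: cattatttcccaGTAGcctgaggttc
Clu: atgagctccaagGTAGaactgtccac
Acadvl: aagaaagggattGTCAacgagcagtt
Cox17: gcgtgatgcgtgGTCAcatcattgag
Fibp: acccttggagccGTCGactctcaggt
Map4k5: acagaaattggtGCAGgcagccaaca
Tusc3: agtgttctgtgtGCAGgcaggctaac
Nup88: agccattgccgtGCAGgcagccagct

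Most sites of length 4 took either few or nearly all reads of their set. Over the mean of the 4 libraries, 24 of the 64 sites took under 10% of the reads, 24 took 90% or more, and 16 lay between. For the 42 sites in sets of 2 donors these counts were 17, 17 and 8. In larger sets a low use need not mean that the first donor was used. In Aasdhppt the site took 4.02% in infarcted and 3.23% in uninjured libraries on average, and a donor 38 bases downstream took 94.8% and 95.3%. The 10 sites with the most reads show both ends. Idh2, which encodes the mitochondrial NADP-dependent isocitrate dehydrogenase, used the longer donor in 99.97% and 99.88% of the reads in infarcted replicates 1 and 2, against 99.95% and 99.95% in uninjured replicates 1 and 2, with 3283 to 10126 reads a library. The GC donor of Idh2 thus had a trace of the reads, 0.98 and 3.96 in infarcted libraries, against 2.87 and 5.06 in uninjured libraries. That donor is not annotated in GENCODE M21. The donors of Idh2 end the exon at bases 87240511 and 87240507 of chromosome 7, minus strand, on mm9. Acadvl, the very long-chain acyl-CoA dehydrogenase, stood at 99.69% and 99.68% in infarcted libraries, against 99.73% and 100% in uninjured libraries. Its donors end at 69824355 and 69824351 of chromosome 11, minus strand. Apoe, apolipoprotein E, stood at 99.93% and 99.93% in infarcted libraries, against 100% and 99.47% in uninjured libraries. Its donors lie in the 5' UTR.

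At the other end stood sites that took almost none of the reads of their set. Clu, the secreted chaperone clusterin, joined at the longer donor in 0.24% and 0.13% of the reads in infarcted libraries, against 0.33% and 0.71% in uninjured libraries, with 903 to 2944 reads a library. Its coding donors end at 66590689 and 66590693 of chromosome 14, plus strand. Cox17, a copper chaperone for cytochrome c oxidase, stood at 0.14% and 0.63% in infarcted libraries, against 0.40% and 0.30% in uninjured libraries. The groups overlapped in Cox17, and in Clu the infarcted libraries lay below the uninjured ones, with a mean difference of -0.335 points. Ndufb10, an accessory subunit of complex I, stood at 1.13% and 0.61% in infarcted libraries, against 0.97% and 0.50% in uninjured libraries. Slc25a3, the mitochondrial phosphate carrier, held 2 sites of length 4, one in its 5' UTR with 0.32% and 0.22% in infarcted libraries against 0.33% and 0.37% in uninjured libraries. Its coding site stood at 0% and 0.54% in infarcted libraries, against 0.22% and 0.12% in uninjured libraries, and a count of 0 of 560 reads allows a use of up to 0.536%. These reads carry no molecular identifiers that the sources used here mention, so such limits and the intervals below cover counting error only.

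The same 4 letters stood at both ends. GTAG opened the intron at the first donor of Macrod1, a mono-ADP-ribosylhydrolase, where the longer donor took 97.13% and 97.76% of the reads in infarcted libraries, against 95.43% and 96.46% in uninjured libraries. The groups did not overlap in Macrod1, with a mean of 97.4% ± 0.445 in infarcted and 95.9% ± 0.728 in uninjured libraries (SD, n = 2 each; edgeR adjusted p = 0.858). Over the 11 sites whose capitals read GTAG, mean use ran from 0.353% in Clu to 99.3% in Jam2, an adhesion molecule of tight junctions. Over the 6 with GTGG it ran from 89.6% to 99.7%, and over the 3 with GTGA from 15.4% to 17.2%. The longer donor alone was annotated at every GTGG site, and the first donor was annotated at every GTGA site. Letters and annotation thus cannot be told apart in these 2 runs. Over the 8 with GCAG it ran from 32.0% in Atp6v1e1, a subunit of the vacuolar proton pump, to 99.6% in Cd81, a tetraspanin.

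The 16 sites of intermediate use were 10 coding sites of 48, 3 of 8 in 5' UTRs and 3 of 4 in 3' UTRs. Ndufb2, an accessory subunit of complex I, had the most reads of them, at 39.2% and 29.9% in infarcted libraries, against 41.2% and 40.5% in uninjured libraries. Both infarcted libraries lay below both uninjured ones. Their means were 34.5% ± 6.57 in infarcted and 40.8% ± 0.537 in uninjured libraries (SD, n = 2 each; edgeR adjusted p = 0.891). The site lies in the 3' UTR, with donors ending at 39548360 and 39548364 of chromosome 6, plus strand. Atp6v1e1 stood at 25.4% and 39.1% in infarcted libraries, against 29.7% and 33.7% in uninjured libraries. Fibp, which encodes a protein that binds fibroblast growth factor 1, stood at 68.0% and 74.5% in infarcted libraries, against 61.2% and 72.6% in uninjured libraries. Groups overlapped at both. Kank1, a regulator of actin at the cell cortex, spread widely within each group, at 44.2% and 15.8% in infarcted libraries, against 46.2% and 25.6% in uninjured libraries, with 11 to 26 reads a library. Eif4a2, an RNA helicase of translation initiation, stood at 22.2% and 26.6% in infarcted libraries, against 14.8% and 24.1% in uninjured libraries. Atp6v1e1, Fibp and Eif4a2 lie in sets of 3 donors and Kank1 in a set of 4, so their other reads need not join at the first donor. In Eif4a2 most other reads joined at a donor 8 bases beyond the first, given below.

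**Figure D1:**
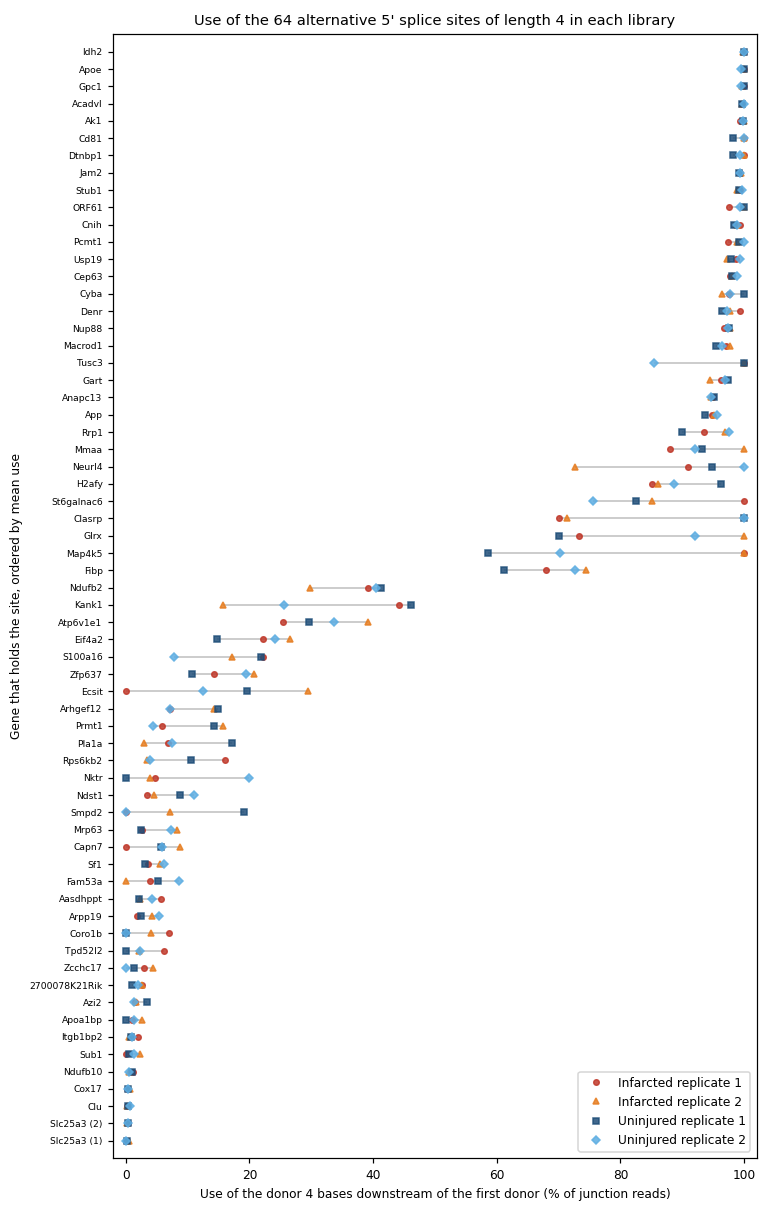
Use of each of the 64 sites of length 4 in each library, as the percent of the junction reads of its set that join at the site; each row is 1 site, ordered by mean use, and the grey line spans the 4 libraries. The 24 sites of 90% or more and the 24 under 10% lie at the edges, and 16 lie between.

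Use of the sites of length 4 mostly went with annotation. An intron of GENCODE M21 matched 63 of the 64 sites of length 4 and 945 of the 968 of other lengths. Both donors were annotated in 10 of the sites of length 4, the longer one alone in 33, the first alone in 19 and neither in 1, against 512, 204, 192 and 37 of the sites of other lengths. Median use was 96.7% where the longer donor alone was annotated, 2.69% where the first alone was and 8.72% where both were. The first 2 intron letters at the first donor could be read from transcripts in 51 sites of length 4 and in 803 of other lengths. Letters can be read only where a transcript keeps these bases in an exon, which leaves out most sites whose first donor alone is annotated. The letters were GC in 21 of the 51 (41.2%) and GT in 30, against GC in 32 of the 803 (3.99%) and GT in 770. Among sites whose longer donor is annotated, GC stood at 46.5% of those of length 4, against 3.43% of those of other lengths. The longer donor alone was annotated in 20 of the 21 sites with a GC first donor and in 13 of the 30 with a GT first donor. Among these, use had a median of 96.3% with a GC first donor, 12 of 20 at 90% or more, and of 97.7% with a GT first donor, 10 of 13 at 90% or more. Over all annotations the medians were 96.2% and 27.5%, values in which letters and annotation cannot be told apart. In the 13 sites whose letters could not be read, all but 1 of which have the first donor alone annotated, 11 stood under 10%.

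A second GT 4 bases into the intron makes the motif GTNNGT at a first donor that opens with GT, and GCNNGT at a first donor that opens with GC. Both motifs were searched from the first intron base on the transcript's strand only. The 6 letters could be read in 23 sites of length 4, of which 14 held the motif that opens with GT and 8 the motif that opens with GC. The motif that opens with GT was held by 25.4% of the 777 first donors of other lengths with 6 letters read. A GT at the fifth and sixth letters follows in part from the length itself, since a longer donor of length 4 has to begin its intron there.

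In Glrx, Map4k5, Tusc3 and Nup88 the 4 capitals equal the first 4 bases of the next exon. The mRNA from the first donor then has the same letters as an mRNA from the longer donor joined 4 bases into the next exon. For these 4 sites the letters of a read of the shorter form leave 2 ways to place its junction. All 4 have GCAG as capitals and are counted among the 21 sites with a GC first donor. Glrx, a glutaredoxin that reduces mixed disulfides, stood at 73.3% and 100% in infarcted libraries, against 70.1% and 92.1% in uninjured libraries.

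Sites of length 4 held intermediate use in 25%, against 42.4% of the sites of other lengths. Among lengths of up to 12 bases, 32.7% of the 104 others that are not a multiple of 3 were intermediate, and 57.1% of the 126 that are. In coding exons 20.8% of the 48 sites of length 4 were intermediate, against 27.3% of the 333 of other lengths that are not a multiple of 3 and 53.0% of the 321 that are. The rarer form is the site or all other donors of its set together, whichever had the lower mean use. Its share had a median of 3.57% for length 4, against 7.80% for other lengths and 14.6% for short multiples of 3. Read depth moved with these shares, and a site with few reads enters by the rule only if its rarer form is not rare. Sites of length 4 had a median of 328.5 reads over all libraries, against 195.5 for other lengths. Where the shallowest library had 10 to 29 reads, 52.4% of the 21 sites of length 4 were intermediate, against 62.7% of the 440 of other lengths. With 30 to 99 reads the shares were 15.8% of 19, against 33.1% of 347. With 100 reads or more they were 8.33% of 24, against 10.5% of 181. The minimum for the rarer form removed many rows. Of 535 rows of length 4 with 10 reads in every library, 471 were left out by it, 327 of them with the rarer form at 0 reads, and 12% were kept, against 15.8% of 6137 rows of other lengths. The members closest to the limit had 5 reads of the rarer form, and the closest row left out had 4.3.

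**Figure D2:**
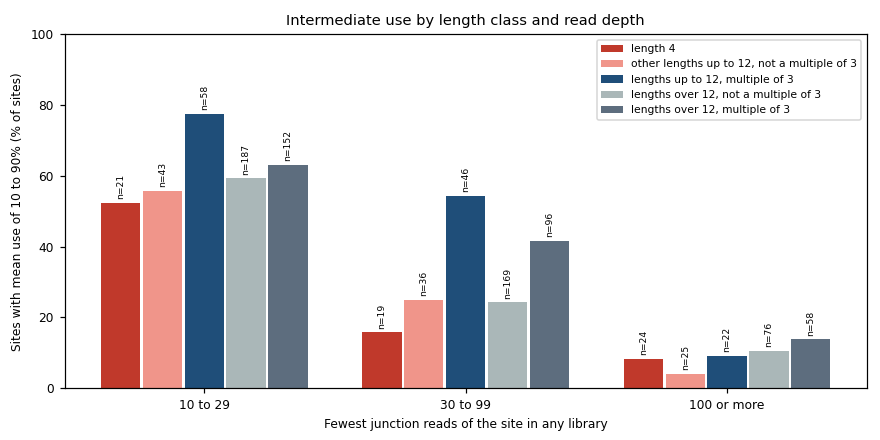
Percent of sites with a mean use of 10 to 90%, by length class (colours) and by the fewest junction reads in any library (3 bins), with the number of sites above each bar. The share falls with depth in every class, and in sites of length 4 it is 52.4%, 15.8% and 8.33%.

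The median use of sites of length 4 was 41.7% and 34.5% in infarcted replicates 1 and 2, against 43.7% and 37.1% in uninjured replicates 1 and 2. That of other lengths was 27.9% and 28.3% in infarcted libraries, against 27.1% and 26.9% in uninjured libraries. The groups overlapped for length 4. An exact two-sided permutation test over the 4 libraries gave p = 0.667 for length 4 and p = 0.333 for other lengths, and 0.333 is the smallest p that 2 libraries against 2 allow. The median of length 4 exceeded that of other lengths by 11.7 points averaged over the libraries, but few sites lie near the middle and the value moved far with the choice of sites. It was 69.9 points with at least 20 reads in every library, 38.7 points in sets of 2 donors and -1.94 points without the 4 sites with repeated letters.

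No alternative 5' splice site differed between infarcted and uninjured hearts at an adjusted p below 0.05. EdgeR's quasi-likelihood test of form by group, adjusted over all 7876 events, called 0 of the 64 sites of length 4 and 0 of the 968 of other lengths, where 0% of all events were called. At an unadjusted p below 0.05 it found 3 of length 4 and 16 of other lengths, 1.84% of the 1032, where 6.68% of all events passed. That count depends on which events are fitted together. EdgeR fitted to splice sites without exons called 0 of the 1032, with 56 at an unadjusted p below 0.05, 7 of them of length 4. The smallest adjusted p of that fit was 0.0621. DESeq2 called 0 with 13 at an unadjusted p below 0.05, and limma on the logit called 0 with 38. Limma with weights for binomial error alone called 2, Ank1 and Atp5g3, neither of length 4. No share over all events is given for these other fits, so their counts cannot be set against the 6.68%. The libraries of the 2 groups did not overlap in 24 sites of length 4, 37.5%, and in 35% of other lengths, where 38.6% of all events did not overlap. The infarcted libraries lay above in 10 and below in 14 sites of length 4, where 17.7% of all events lay above and 20.9% below. The mean difference, infarcted minus uninjured, was positive in 34 and negative in 30 of the sites of length 4, with a median of 0.118 points. That median was 0.295 points without infarcted replicate 1, and -0.193, -0.0625 and -0.02 points without infarcted replicate 2, uninjured replicate 1 and uninjured replicate 2. The median size of the difference was 1.26 points for length 4, against 2.62 points for other lengths. Libraries of the same group differed by a median of 1.48 points in infarcted and 1.46 points in uninjured hearts over sites of length 4, and libraries of different groups by 1.21 to 2.01 points. Sites with a difference of at least 10 points were 4 of length 4 (6.25%), against 135 of other lengths (13.9%). With 100 reads or more in every library none of the 24 sites of length 4 nor of the 181 others differed by 10 points. There the differences of length 4 ran from -6.31 points in Ndufb2 to 1.77 points in Denr, and those of other lengths from -6.54 to 9.51 points.

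**Figure D3:**
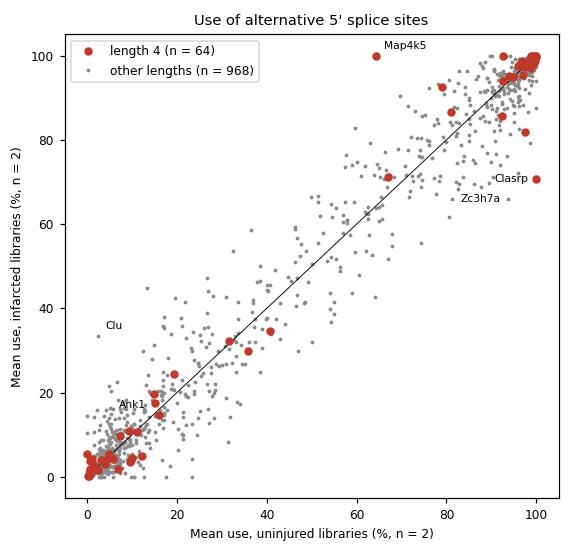
Mean use of each site in infarcted libraries (vertical axis, %, n = 2) against uninjured libraries (horizontal axis, %, n = 2), with the 64 sites of length 4 in red and the 968 others in grey. Points lie along the line of equal use, and the 4 sites of length 4 that differ by at least 10 points include Map4k5 above it and Clasrp below it.

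The 14 sites with the smallest p, 6 of length 4 and 8 of other lengths, are given as a description. In 12 of the 14 the minimum of 5 reads for the rarer form was met in 1 group alone, so the rule that chose them used the difference itself, and their p supports nothing further. The other 2 were Ank1 and the site of length 4 in Clu. Among the sites of length 4, Map4k5 had the smallest p. It encodes a kinase of the germinal centre kinase family that acts upstream of JNK. Its longer donor took 100% and 100% of the reads in infarcted libraries, against 58.5% and 70.2% in uninjured libraries, with 22, 30, 26 and 21 reads in that order of libraries. The shorter form was thus read only in uninjured hearts, and a count of 0 of 22 and of 30 reads allows up to 13.6% and 10% of it in infarcted libraries. The 95% Wilson intervals were 85.1 to 100% and 88.6 to 100% in infarcted libraries, against 38.9 to 74.5% and 50.0 to 86.2% in uninjured libraries. EdgeR gave an adjusted p of 0.733, and over the other settings the adjusted p ran from 0.103 to 0.881. This is one of the 4 sites with repeated letters, and its donors end at 70916746 and 70916742 of chromosome 12, minus strand, in coding sequence. The gene's level was 35.3 ± 2.62 CPM in infarcted and 26.9 ± 6.07 CPM in uninjured libraries (SD, n = 2 each; edgeR adjusted p = 0.163).

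Clasrp and Coro1b were the other sites of length 4 with an unadjusted p below 0.05. Clasrp, which encodes an SR-like protein that binds the CLK4 splicing kinase, joined at the longer donor of its 5' UTR in 70.0% and 71.4% of the reads in infarcted libraries, against 100% and 100% in uninjured libraries. These rest on 10 and 14 reads in infarcted and 13 and 13 reads in uninjured libraries, where a count of 0 allows up to 23.1% of the other forms (edgeR adjusted p = 0.733). Coro1b, a coronin that binds actin filaments, stood at 6.98% and 4.08% in infarcted libraries, against 0% and 0% in uninjured libraries. Its 3 and 2 reads of the longer form, all from infarcted libraries, just meet the minimum of 5. A count of 0 of 40 and of 52 reads allows up to 7.5% and 5.77% in the uninjured libraries, limits that lie near the infarcted values (edgeR adjusted p = 0.733). Dtnbp1, the dysbindin subunit of a complex for lysosome-related organelles, stood at 100% and 100% in infarcted libraries, against 98.3% and 99.4% in uninjured libraries. Tusc3, a subunit of the oligosaccharyltransferase, stood at 100% and 100% in infarcted libraries, against 100% and 85.4% in uninjured libraries. In Tusc3 a single uninjured library carried the other form. Of the 4 sites of length 4 that differed by at least 10 points, the other 2 were picked after their values were seen. St6galnac6, a sialyltransferase, stood at 100% and 85% in infarcted libraries, against 82.6% and 75.6% in uninjured libraries. Neurl4 stood at 90.9% and 72.7% in infarcted libraries, against 94.7% and 100% in uninjured libraries. That rests on 33 and 11 reads in infarcted and 19 and 27 reads in uninjured libraries. Its shorter form had 3 and 3 reads in infarcted libraries, against 1 and 0 in uninjured libraries. The infarcted group alone met the minimum of 5 reads.

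Among other lengths, Ank1 had the smallest p. It encodes ankyrin 1, whose short muscle forms tie the sarcoplasmic reticulum to the contractile apparatus. A donor 75 bases downstream of the first took 13.7% and 16% of the reads in infarcted libraries, against 5.94% and 4.70% in uninjured libraries, with 440 to 1282 reads a library. Both infarcted libraries lay above both uninjured ones, and the 95% Wilson intervals of 10.9 to 16.8% and 12.8 to 19.6% in infarcted libraries did not meet those of 4.55 to 7.86% and 3.65 to 5.98% in uninjured libraries. The log2 odds ratio, infarcted over uninjured, was 1.63 with a standard error of 0.39 (edgeR adjusted p = 0.733). Limma with binomial weights alone gave an adjusted p of 3.27e-12, and edgeR fitted to splice sites without exons gave 0.0621. Leaving out 1 library at a time kept the log2 odds ratio between 1.43 and 1.81, with adjusted p of 0.744 to 0.881. The added 75 bases, in coding sequence that ends at 24251701 or 24251776 of chromosome 8, plus strand, are a multiple of 3. The gene's level fell to 152 ± 18.2 CPM in infarcted libraries, against 268 ± 39.5 CPM in uninjured libraries (SD, n = 2 each; edgeR adjusted p = 0.0103). Atp5g3, subunit c of the ATP synthase, used a donor 10 bases downstream in its 5' UTR in 19.3% and 20.7% of the reads in infarcted libraries, against 17.2% and 17.3% in uninjured libraries. Its groups did not overlap, with 2707 to 9367 reads a library, edgeR gave an adjusted p of 0.911, and limma with binomial weights alone gave 0.00205.

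The next smallest p-values belonged to sites with few reads of a form. Clu used a donor 35 bases downstream, in its 5' UTR, in 41.2% and 25.9% of the reads in infarcted libraries, against 0% and 4.76% in uninjured libraries. That rests on 17 and 27 reads in infarcted libraries and 15 and 21 reads in uninjured libraries (edgeR adjusted p = 0.733). It lies upstream of the coding pair of length 4 described above, whose use stayed under 1% in every library. Zc3h7a, a zinc finger protein, stood at 72.0% and 60.0% in infarcted libraries, against 91.3% and 96.0% in uninjured libraries, for a donor 62 bases downstream read 20 to 25 times a library (edgeR adjusted p = 0.733). Nkain1, which interacts with the sodium pump, stood at 81.8% and 76.5% in infarcted libraries, against 100% and 97.1% in uninjured libraries, for a length of 6. The gene 4930471M23Rik stood at 94.6% and 93.2% in infarcted libraries, against 100% and 100% in uninjured libraries, for a length of 13. In these 3 the infarcted libraries lay below the uninjured ones.

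In 3 more of these 12 sites the longer form was read in uninjured libraries alone, through which they met the minimum. Ctsb, the lysosomal protease cathepsin B, stood at 0% and 0% in infarcted libraries, against 0.38% and 0.65% in uninjured libraries, for a length of 405. A count of 0 allows up to 0.272% and 0.385% there. Acads, the short-chain acyl-CoA dehydrogenase, stood at 0% and 0% in infarcted libraries, against 4.13% and 3.39% in uninjured libraries, for a length of 265, and a count of 0 allows up to 3.7% and 5.08%. Fabp3, the fatty acid binding protein of heart muscle, stood at 0% and 0% in infarcted libraries, against 27.3% and 7.69% in uninjured libraries, for a length of 131, and a count of 0 allows up to 14.3% and 11.5%. For Ctsb, Acads and Fabp3 the uninjured values thus lie partly within what 0 reads allow.

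**Figure D4:**
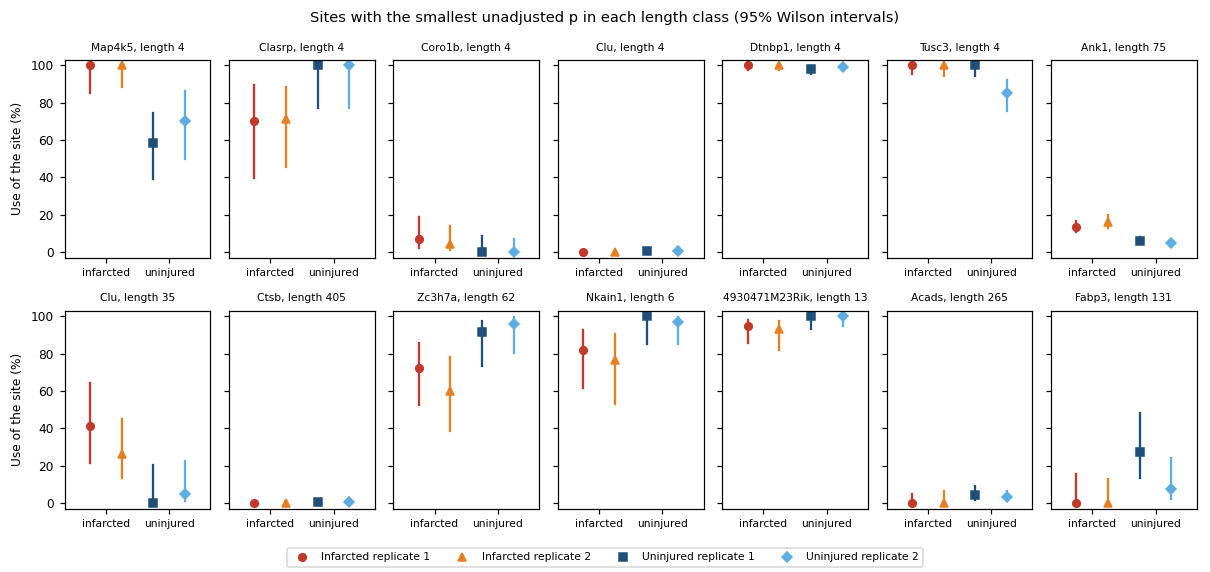
Use of the 6 sites of length 4 and the 8 of other lengths with the smallest unadjusted p, in each library, with 95% Wilson intervals that cover counting error only; infarcted libraries stand left of uninjured ones. Intervals of the groups stay apart in Ank1 and overlap in Clasrp, Coro1b and Fabp3.

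Of the 6 sites of other lengths with the most reads, 5 had 1 form at or above 99% in all 4 libraries, and Atp5g3 was the other. Atp2a2, the calcium pump of the sarcoplasmic reticulum, used a donor 7 bases downstream in 0.12% and 0.05% of the reads in infarcted libraries, against 0.12% and 0.09% in uninjured libraries, with 6399 to 22942 reads a library. Cox4i1, a subunit of cytochrome c oxidase, joined at a donor 7 bases downstream in 99.91% and 99.91% of the reads in infarcted libraries, against 99.94% and 99.88% in uninjured libraries. The donor 5 bases downstream in the same set took 0.04% and 0.02% in infarcted libraries, against 0.01% and 0.04% in uninjured libraries. Cox7a1, the heart and muscle form of another subunit of that enzyme, used a donor 94 bases downstream in 0.84% and 0.72% of the reads in infarcted libraries, against 0.87% and 0.87% in uninjured libraries. Its donor 285 bases downstream took 0.35% and 0.20% in infarcted libraries, against 0.17% and 0.18% in uninjured libraries. Groups overlapped in Atp2a2 and at both Cox4i1 sites, and the mean differences in Cox7a1 were -0.09 and 0.1 points.

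The genes that hold the sites were more often lower than higher in infarcted hearts. Of 809 tested genes with an alternative 5' splice site, 52 rose (6.43%), where 18.3% of all 13905 genes tested rose, and 230 fell (28.4%), where 14.6% fell, by edgeR's quasi-likelihood test at an adjusted p below 0.05. Of the 61 tested genes with a site of length 4, 5 rose and 27 fell (44.3%), against 50 and 212 (27.6%) of 767 with a site of another length. The read minimum in every library selects well-expressed genes, and of the 3519 tested genes with any tested splicing event 10.9% rose and 20.5% fell. The median log2 fold change, infarcted over uninjured, was -0.46 in genes with a site of length 4 and -0.28 in all 809, where it was -0.11 in genes with any tested event and 0.02 over all genes. These counts lean on single libraries. Without uninjured replicate 2 they were 2 higher and 2 lower, without infarcted replicate 2 they were 31 and 129, and without infarcted replicate 1 the higher ones were 31.

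Among the genes with a site of length 4, Macrod1 fell by 1.34 on the log2 scale (SE 0.24), to 68.7 ± 0.565 CPM in infarcted libraries, against 173 ± 59.9 CPM in uninjured libraries (SD, n = 2 each; edgeR adjusted p = 0.00135). Ndufb2 fell by 1.20, Ndufb10 by 1.14, Cox17 by 1.08, Acadvl by 1.02, Slc25a3 by 0.91 and Idh2 by 0.84 on the same scale. The genes with a site of length 4 that rose were Clu with a log2 fold change of 1.24, Apoe with 1.23, App, the amyloid precursor protein, with 0.99, Nktr with 0.61 and Pla1a with 0.59. Clu averaged 1395 ± 60.4 CPM in infarcted and 592 ± 65.3 CPM in uninjured libraries, while its coding pair of length 4 used the longer donor at under 1% in both groups.

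Markers of some cell types differed between the groups. Summed over 8 cardiomyocyte genes, the level was 32929 and 29430 CPM in infarcted libraries, against 48037 and 59687 CPM in uninjured libraries. Of the 8, 4 fell, where 14.6% of all genes fell, and Myh6, Actc1, Ttn and Ryr2 did not pass. Summed over 8 fibroblast genes the level was 8084 and 6525 CPM in infarcted libraries, against 855 and 821 CPM in uninjured libraries. Of these 8, 5 rose, where 18.3% of all genes rose, and Pdgfra, Dcn and Tcf21 did not pass. Summed over 8 macrophage genes the level was 431 and 434 CPM in infarcted libraries, against 174 and 154 CPM in uninjured libraries, and all 8 rose. Summed over 8 endothelial genes it was 1073 and 938 CPM in infarcted libraries, against 880 and 875 CPM in uninjured libraries, and 0 of the 8 passed edgeR's test, with 3 at an unadjusted p below 0.05. Over 3 of 5 atrial genes that were tested the sum was 295 and 1948 CPM in infarcted libraries, against 88.6 and 49.4 CPM in uninjured libraries, and edgeR called 0 of them, with 0 at an unadjusted p below 0.05. The 1948 CPM belong to infarcted replicate 2 alone. Nppa made up most of both infarcted sums, with 294 and 1456 CPM in infarcted replicates 1 and 2. Myl4 stood at 1.34 and 361 CPM in them, against 1.42 and 2.44 CPM in uninjured libraries. Myl7 stood at 0.08 and 132 CPM, against 0.271 and 0.319 CPM. Infarcted replicate 2 thus held atrial transcripts that were near absent from infarcted replicate 1. The part of cell makeup in the values above was not tested. Library totals were 46232326 and 35715115 gene counts in infarcted replicates 1 and 2, against 53944859 and 70885393 in uninjured replicates 1 and 2. A site of length 4 had a median of 75.5 and 71 reads in those infarcted libraries, against 85.5 and 110 in the uninjured ones.

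Factors that recognise 5' splice sites were followed, with other splicing factors, in the same gene counts. Of 47 tested genes of U1, U6 and the tri-snRNP, of U1 helpers and of other splicing factors, 1 rose and 2 fell. Over all genes 18.3% rose and 14.6% fell, and the median log2 fold change of the 47 was -0.01. Ptbp1, the polypyrimidine tract binding protein, a regulator of alternative exons, rose to 80.2 ± 12.6 CPM in infarcted libraries, against 35.1 ± 2.58 CPM in uninjured libraries (SD, n = 2 each; log2 fold change 1.19, SE 0.19, edgeR adjusted p = 0.000642). Snrnp27, a protein of the tri-snRNP, fell to 16.4 ± 1.06 CPM in infarcted libraries, against 26.1 ± 3.93 CPM in uninjured libraries (edgeR adjusted p = 0.0209). Txnl4a, a U5 protein of the tri-snRNP, fell to 7.31 ± 1.85 CPM in infarcted libraries, against 12.6 ± 1.61 CPM in uninjured libraries (edgeR adjusted p = 0.0225). Luc7l, a U1-associated protein, had a log2 fold change of 0.52 and did not pass (edgeR adjusted p = 0.0618). Of 27 tested genes of nonsense-mediated decay and the exon junction complex 1 rose and 0 fell by edgeR's test, where 2 higher and 2 lower had an unadjusted p below 0.05 and where 18.3% of all genes rose and 14.6% fell. Pabpc1, the cytoplasmic poly(A) binding protein, rose to 197 ± 21.9 CPM in infarcted libraries, against 86.9 ± 5.76 CPM in uninjured libraries (log2 fold change 1.18, SE 0.20, edgeR adjusted p = 0.000859). Rbm8a and Magoh, both of the exon junction complex, had log2 fold changes of -0.54 and -0.49, and Smg1, the kinase of the decay factor Upf1, had 0.48, none of which passed. Over both lists 2 rose and 2 fell. Without uninjured replicate 1 the count that rose was 5, without uninjured replicate 2 it was 0 and 0 fell, and without infarcted replicate 2 the count that fell was 0.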

How the data were processed

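Polyadenylated RNA of 2 infarcted and 2 uninjured mouse hearts was sequenced, and groups and replicate numbers follow the labels. The authors deposited the percent use of each splice site and a text field of other values that holds corrected inclusion and exclusion reads, on mm9 per the submitters' processing notes; no source used here gives the event caller, the aligner or whether reads keep their strand. They also deposited raw counts per Ensembl gene. The percent equals 100 times inclusion reads over both forms within 0.05 points. Of the sites' read numbers 41.1% are not whole, so reads were rounded before tests.

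The form-by-group interaction was tested on all 7876 events with edgeR 4.0.16 (quasi-likelihood, 1 term per library, R 4.3.3), with limma 3.58.1 on the logit (0.5 reads added) and DESeq2 1.42.0 as alternatives. Genes were tested with edgeR (TMM, filterByExpr, robust), and CPM use TMM library sizes. P-values were adjusted by Benjamini-Hochberg over all events or genes, and the call was an adjusted p below 0.05. The scripts were tested on simulated data. With 2 libraries a group, gene fits have 2 residual degrees of freedom and borrow spread across genes.

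Named sites were the 10 of length 4 with most reads, the 6 with the smallest p, the 4 nearest 50% use, and, of other lengths, the 8 with the smallest p and the 6 with most reads, plus their genes and up to 4 members of each machinery list with the smallest p. Other sites named in the text were chosen after their values were seen. Members and lists were chosen with earlier results of these data known. Donor letters come from GENCODE M21 transcripts, on another build than mm9, matched by gene, chromosome, strand and intron length with no conversion of coordinates; 1 site of length 4 was not matched. Antisense genes and near-identical copies cannot be told apart by these reads.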

Additional observations from a re-analysis of the deposited data

How the results depend on the processing

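The count of 0 called sites was the same with limma on the logit, DESeq2, at least 20 reads a library, splice sites fitted without exons, and each library left out. Limma with binomial weights, added after seeing the data, called 2, both of other lengths; its weights hold counting error alone. The median difference of sites of length 4, 0.118 points, was -0.09 in sets of 2 donors and ran from -0.193 to 0.295 with a library left out, so its sign is not fixed. The gap in median use between length 4 and other lengths, 11.7 points, was 69.9 with at least 20 reads, 38.7 in sets of 2 donors and -1.94 without the 4 sites with repeated letters, an alternative added after seeing the data. Genes with a site that rose numbered 2 to 43 and those that fell 2 to 261 with a library left out, and machinery genes 0 to 5 and 0 to 3; the lone library of a group is then assumed to vary like the rest. Deviations of same-numbered libraries were little correlated (0.0898 over the sites and 0.0846 over genes). With 2 libraries a group this cannot exclude a shared batch. The replicate block called 0 sites, with 60 genes that rose and 260 that fell, and 3 and 2 of the machinery. Depth limits most sites, with a median of 40 to 67 reads a library.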

Other observations

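Donors 4 bases apart also occurred away from the first donor of a set. Of the 968 sites of other lengths, 27 had another donor of their set 4 bases away. Of these, 8 stood under 10%, 11 between and 8 at 90% or more, and the rarer form had a median share of 8.34%. None of the 27 lies in a set of 2 donors, and use is taken over the whole set. These shares therefore do not compare the donors 4 bases apart with each other. Both donors of a pair are counted where both passed the minimum, as in Hadhb and Prkcsh. Hadhb, a subunit of the mitochondrial trifunctional protein, joined at a donor 43 bases beyond the first, in its 5' UTR, in 62.1% and 59.4% of the reads in infarcted libraries, against 64.1% and 65.7% in uninjured libraries. The donor 47 bases beyond, 4 bases further on, took 1.30% and 0.99% in infarcted libraries, against 1.75% and 1.07% in uninjured libraries. In Prkcsh, the beta subunit of glucosidase II, the donors 34 and 38 bases beyond the first shared the reads more evenly. The nearer one took 80% and 77.4% in infarcted libraries, against 78.4% and 73.9% in uninjured libraries, and the farther one 20% and 19.4% in infarcted libraries, against 21.6% and 26.1% in uninjured libraries. Eif4a2, whose site of length 4 is described above, has a further donor at 8 bases, which took 74.5% and 69.1% in infarcted libraries, against 76.0% and 72.0% in uninjured libraries. These genes were chosen after their values were seen.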
